A study of Bos grunniens and Bos grunniens x Bos taurus with 2 samples.

Results

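*BMX* and 5 genes described with the endothelial cells that hold it, *PTGS2*, *ADAMTSL5*, *EPAS1*, *FBLN2* and *PLTP*, are 6 of the 26961 features of the yak annotation. Each symbol matched 1 feature (*BMX*, ENSBGRG00000011354; *PTGS2*, ENSBGRG00000018786; *ADAMTSL5*, ENSBGRG00000016801; *EPAS1*, ENSBGRG00000006847; *FBLN2*, ENSBGRG00000017885; *PLTP*, ENSBGRG00000019666). The genes were chosen from levels measured in these same cells, so their levels and ratios are descriptions and carry no test. Testis of a sexually mature yak (*Bos grunniens*), a 4-year-old male, and testis of a sexually mature cattle-yak (*Bos grunniens* x *Bos taurus*) gave 1 droplet library each. In both cases frozen tissue was thawed and digested with collagenase IV and hyaluronidase and then with trypsin. Unique molecular identifiers (UMIs) were counted per gene in 11991 yak and 8930 cattle-yak cells, with totals of 60816600 and 43774841 and medians of 2533 and 3155 UMIs per cell. With 1 library per animal type there is no replicate, so differences between libraries are not differences between crosses, and all 95% intervals hold counting error only.

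After limits on genes, UMIs and mitochondrial share, 10324 yak and 7092 cattle-yak cells were kept and clustered without the 6 genes. Levels are UMIs of a gene per 1000000 UMIs, both summed over the cells of a group (CPM). Endothelial-like (EC-like) clusters were named from markers such as *PECAM1*, *CDH5* and *VWF* and held 887 yak cells (8.59%) and 754 cattle-yak cells (10.6%), with medians of 4596 and 4396 UMIs. In the yak library, the study's own assignment of 1127 barcodes to spermatogonial stem cells (SSC, 84 cells), spermatogonia (SPG, 486), early (72) and late (261) spermatocytes and spermatids (SPT, 224) was used. Both libraries carry a germ cell tag in their labels, although these barcodes were 1127 of the 10324 kept yak cells. Of 24 barcodes present in both libraries, 23 yak and 16 cattle-yak cells were kept, and 3 were EC-like in each, 0 of them with *BMX*. Mitochondrial transcripts took 13.1% of yak and 22.2% of cattle-yak UMIs.

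*BMX* encodes a non-receptor tyrosine kinase of the TEC family, known from the endothelium of arteries and the endocardium. *PTGS2* is cyclooxygenase-2, the inducible enzyme at the start of prostaglandin synthesis, and *EPAS1* (HIF-2α) is a transcription factor of the oxygen response that is abundant in endothelium. The other members are secreted. *FBLN2* (fibulin-2) and the ADAMTS-like protein *ADAMTSL5* belong to the extracellular matrix, and *PLTP* transfers phospholipids between lipoproteins. In the testis, arteries supply the interstitial capillaries, and germ cells lie inside tubules that hold no vessels.

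*BMX* was mostly an endothelial transcript in both libraries. In the yak library, EC-like cells held 298 *BMX* UMIs, 63.4% of those in kept cells, at 58.1 CPM (51.7 to 65.1). In the cattle-yak library they held 150, or 91.5%, at 39.2 CPM (33.2 to 46.0). In cells chosen instead by UMIs of at least 3 endothelial markers and none of *PTPRC*, the levels were 32.8 and 21.2 CPM. Against the other kept cells of the same library, the level in the EC-like clusters was 10.5-fold higher in yak (8.69 to 12.8). In cattle-yak it was 62.9-fold higher (36.3 to 118). Of the 14 *BMX* UMIs of the other kept cattle-yak cells, 8 lay in an unnamed cluster led by *TNFRSF21* and *HIGD1B*. That cluster had 13 endothelial and 5 pericyte markers enriched. In yak, *BMX* also lay outside the named class. A shallow unnamed cluster of 652 cells, led by *PTPRB* and *FN1*, had a median of 1076 UMIs and 1 endothelial marker enriched. It held 84 *BMX* UMIs at 71.9 CPM (57.4 to 89.1), an interval that overlaps that of EC-like cells. Its endothelial markers summed to 2149 CPM, against 4226 CPM in EC-like cells without *BMX*, and its *PECAM1* was at 814 against 839 CPM. These 84 UMIs are among the 172 of the other kept yak cells, so the yak share and fold count this cluster as not endothelial. The SSC stood above EC-like cells and this cluster at 183 CPM (122 to 264). SPG came next at 14.5 CPM (6.65 to 27.6). T/NK-like cells, which should lack the gene, were at 1.38 CPM in yak and 0.871 in cattle-yak, and MC-like (myoid) cells at 0.272 CPM and 0 UMIs. Of 707 yak *BMX* UMIs over all barcodes, 237 lay in cells that the limits removed.

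At least 1 *BMX* UMI was found in 113 yak EC-like cells (12.7%, 10.6 to 15.1) and in 82 of cattle-yak (10.9%). The share was 0.249% of 3609 yak and 0.241% of 1247 cattle-yak T/NK-like cells, at medians of 1954 and 2388 UMIs. With every cell thinned to 1000 UMIs, and 33 shallower yak EC-like cells left out, the yak shares were 3.98% of 854 EC-like and 0.116% of 3436 T/NK-like cells. The same thinning gave 3.48% of 719 cattle-yak EC-like cells and 0 of 1203 T/NK-like cells, which at a floor of 3 counts allows a share of up to 0.249% of cells with a UMI. A cell with *BMX* held 1 to 9 UMIs of it in yak (median 2) and 1 to 5 in cattle-yak (median 1).

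*ADAMTSL5* and *EPAS1* shared this endothelial preference in a milder form. A log2 ratio of 1 or more between EC-like and other kept cells, with 1 CPM added to each side, was reached by 3 of the 6 genes in each library, *BMX*, *ADAMTSL5* and *EPAS1*, beside 6.66% of all genes with enough counts in yak and 8.65% in cattle-yak. *ADAMTSL5* stood at 229 CPM in yak and 255 CPM in cattle-yak EC-like cells, 3.76-fold (3.49 to 4.04) and 4.84-fold (4.44 to 5.27) above the other cells. MC-like cells also held it, at 164 and 129 CPM. *EPAS1* was at 509 CPM in yak and 485 CPM in cattle-yak EC-like cells, 4.77-fold (4.53 to 5.02) and 5.77-fold (5.41 to 6.15) above the others. Pericyte-like cells held 251 and 154 CPM of *EPAS1*. An unnamed yak cluster led by *KCNJ8* and *STMN2*, with 10 endothelial and 5 pericyte markers enriched and a median of 10184 UMIs, held 439 CPM. It held 1184 of the 3323 *EPAS1* and 297 of the 1897 *ADAMTSL5* UMIs of the other kept yak cells. The cattle-yak cluster led by *TNFRSF21* and *HIGD1B* held *EPAS1* at 360 CPM. Its part of the other kept cells there was 903 of 1886 *EPAS1* and 348 of 1184 *ADAMTSL5* UMIs. The folds of both genes thus count these clusters, and the yak *PTPRB* and *FN1* cluster, as not endothelial.

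*PTGS2*, *FBLN2* and *PLTP* stood higher in macrophage-like or stromal-like cells than in EC-like cells. Macrophage-like cells held *PTGS2* at 110 CPM in yak and 187 CPM in cattle-yak, against 12.3 and 9.93 CPM in EC-like cells. *FBLN2* was at 470 and 338 CPM in stromal-like cells and at 99.7 and 50.7 CPM in EC-like cells, beside 103 CPM in yak lymphatic EC-like cells. *PLTP* was at 335 and 591 CPM in macrophage-like, 125 and 90.5 CPM in stromal-like and 31.8 and 16.2 CPM in EC-like cells. EC-like cells thus stood 0.498-fold (0.422 to 0.585) and 0.241-fold (0.184 to 0.311) of the other cells for *PLTP*. A log2 ratio of -1 or less was reached by 0 of 6 genes in yak and 2 of 6 in cattle-yak, *FBLN2* and *PLTP*, beside 23.0% and 16.1% of all genes.

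**Figure D1:**
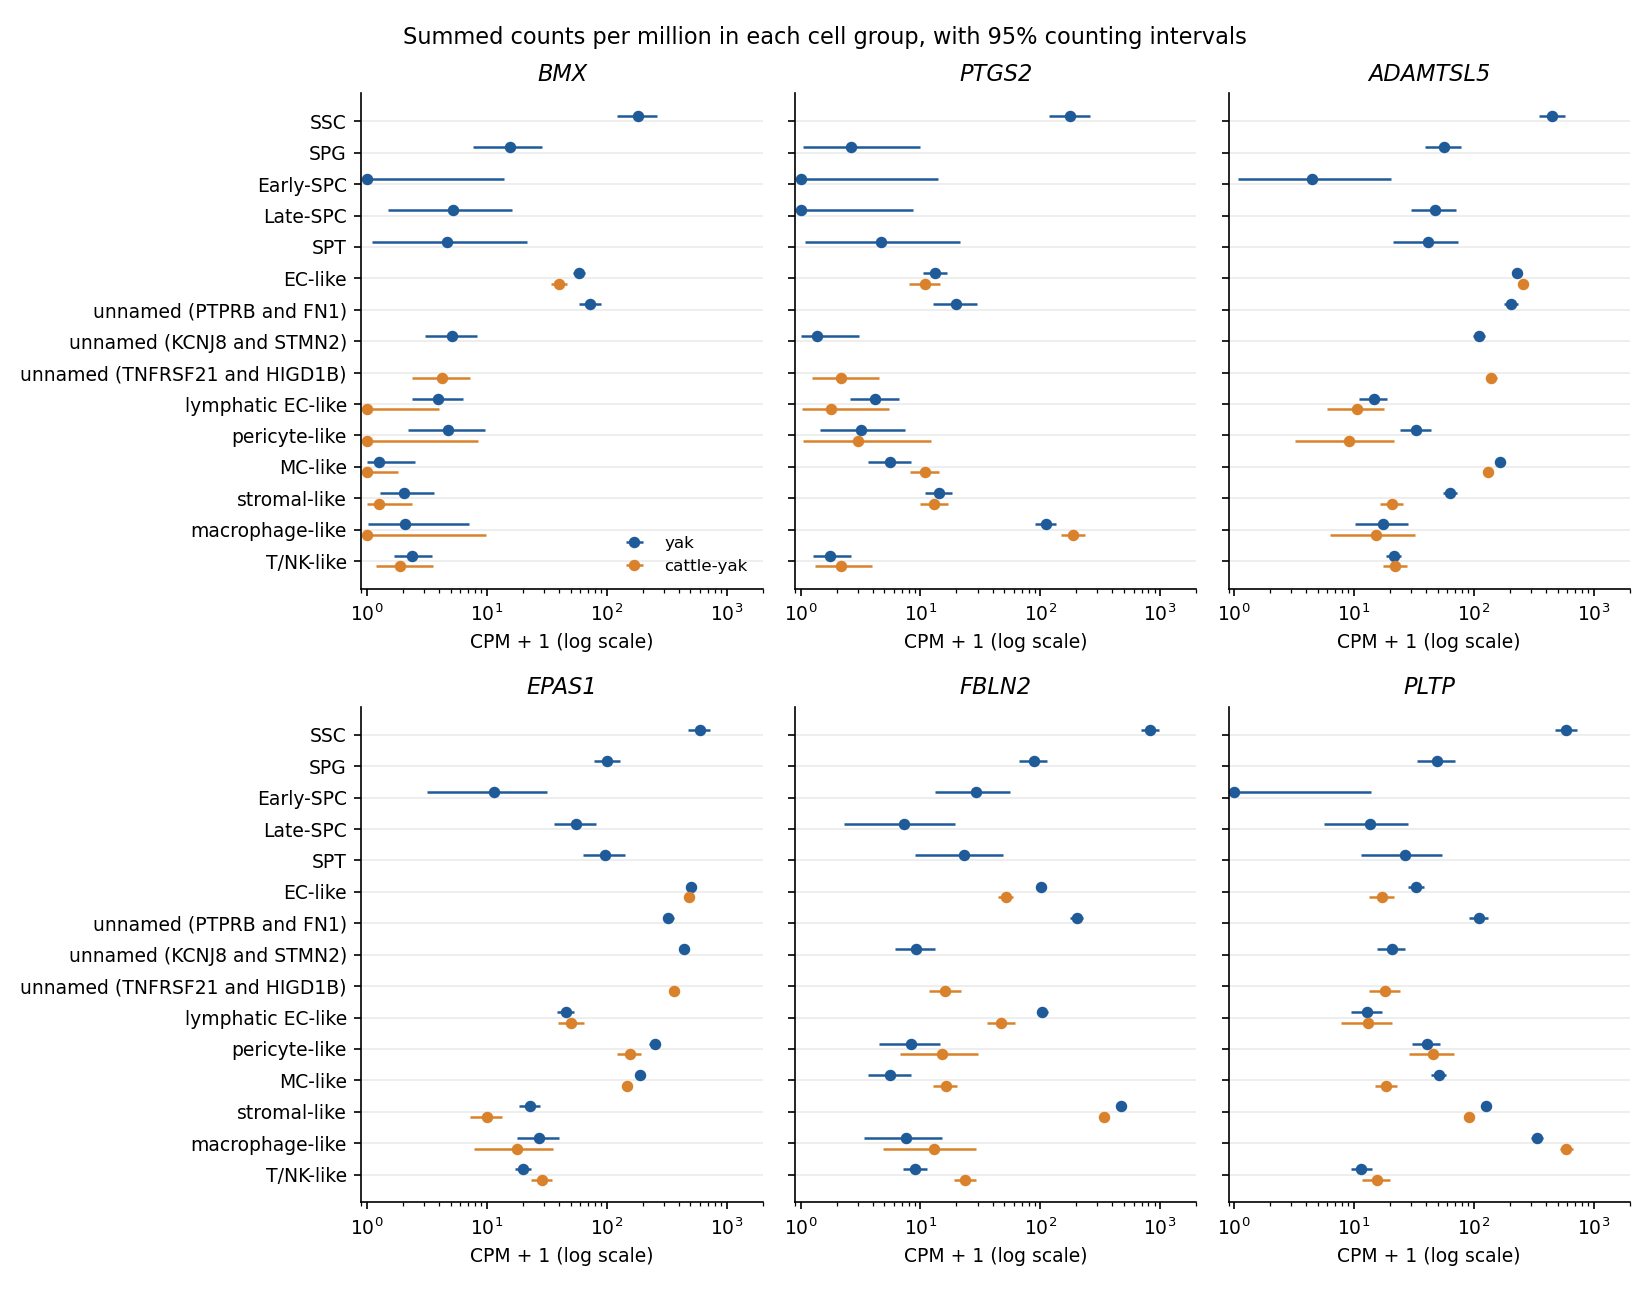
Level of each gene in CPM (log axis) in the cell groups of the yak and cattle-yak libraries, with exact 95% Poisson bars that hold counting error only. *BMX* is highest in yak SSC (183 CPM), the *PTPRB* and *FN1* cluster (71.9 CPM) and EC-like cells (58.1 CPM), whereas *PTGS2* and *PLTP* are also high in macrophage-like and *FBLN2* in stromal-like cells.

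Within the EC-like class, the cells with *BMX* held more of each of the other 5 genes per UMI than the cells without it. In yak, *FBLN2* was at 474 CPM in the 113 cells with *BMX* and at 19.6 CPM in the 774 without, 24.1-fold (19.0 to 30.9). *PTGS2* was at 58.7 and 2.37 CPM, 24.8-fold (12.5 to 54.7), and *PLTP* at 132 and 10.4 CPM, 12.7-fold (8.89 to 18.3). Of the 63 *PTGS2* UMIs in yak EC-like cells, held by 25 cells, 12 (19.0%) lay in 1 cell. Of the 163 *PLTP* UMIs, held by 56 cells, 27 (16.6%) lay in 1 cell. *ADAMTSL5* differed 3.30-fold (2.93 to 3.71) and *EPAS1* 1.51-fold (1.38 to 1.65). Of the 5 genes, 4 reached a log2 ratio of 1, beside 5.70% of all genes with at least 20 counts. These ratios are a description, since the genes were picked for them. Cells with *BMX* were deeper, with a median of 7593 against 4230 UMIs, and depth raises the chance of a *BMX* UMI. The split was also made on thinned cells, with the ratios still taken from full counts. The yak log2 ratios then went from 4.52 to 2.77 for *FBLN2* and from 4.15 to 2.40 for *PTGS2*. They went from 3.54 to 1.29 for *PLTP* and from 1.71 to 1.41 for *ADAMTSL5*, all still at 1 or more. Thinning left a *BMX* UMI in 34 of the 113 cells, and the rest counted as without it. The part of depth in these drops was not tested.

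The cattle-yak library had the same pattern for *PTGS2* and *FBLN2* and a smaller one for *PLTP*. *PTGS2* differed 27.3-fold (11.8 to 73.3) between its 82 cells with *BMX* and 672 without, but its 38 UMIs lay in 11 cells, and 14 of them (36.8%) in 1 cell. *FBLN2* was at 238 and 20.4 CPM, 11.7-fold (8.61 to 15.9). *PLTP* was at 31.8 and 13.7 CPM, 2.33-fold (1.25 to 4.14). *ADAMTSL5* and *EPAS1* differed 1.97-fold and 1.35-fold. Of the 5 genes, 3 reached a log2 ratio of 1, beside 7.17% of all genes. *ADAMTSL5* lay just below it at 0.98 and *PLTP* just above at 1.16. With no upper limit on genes and UMIs they changed places, at 1.17 and 0.83, so the count of 3 held with different genes. *ADAMTSL5* reached 1.09 when the split was made on thinned cells, at which *PLTP* was at 1.81. Medians were 5872 and 4104 UMIs in cells with and without *BMX*.

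**Figure D2:**
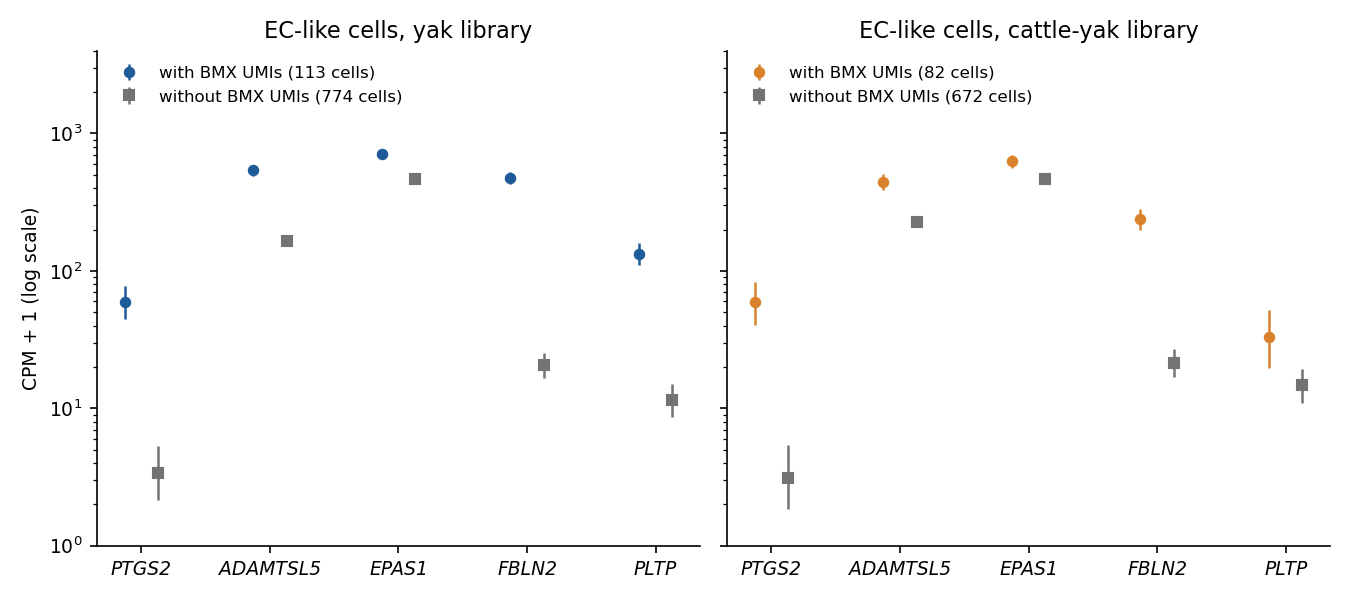
Level of the other 5 genes in CPM (log axis) in EC-like cells with and without a *BMX* UMI, for yak and cattle-yak, with exact 95% Poisson bars. *FBLN2* is at 474 against 19.6 CPM in yak and 238 against 20.4 CPM in cattle-yak, and *EPAS1* differs least.

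Cell by cell, all 5 other genes were found in 13 of the 113 yak cells with *BMX* and in 2 of the 774 without. None of the 5 was found in 2 and 129 cells. In cattle-yak, 3 of 82 and 1 of 672 cells held all 5, and 1 and 121 held none. The median number of the 5 genes in a cell was 3 with *BMX* and 1 without in yak, and 2 and 1 in cattle-yak. These numbers come from full counts, and the cells with *BMX* were deeper in both libraries, which raises the chance of finding each gene. The part of depth was not tested.

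Genes known from arterial endothelium stood high in the cells with *BMX* in both libraries, and most genes of veins stood low. The lists were chosen with earlier results of these data known, so their counts are descriptions. Of 13 arterial genes in the annotation, 12 had enough counts in each library. A log2 ratio of 1 was reached by 9 in yak and 9 in cattle-yak, beside 5.70% and 7.17% of all genes, with 9 in both and 0 at -1 or less. The arterial genes ranged from -0.23 for *CXCR4* to 3.94 for *FBLN5* in yak, and *FBLN5* is also on the fibulin list. In cattle-yak they ranged from -0.47 for *CXCR4* to 3.58 for *GJA5*, and the median was 2.11 against 0.10 over all genes. The gap junction gene *GJA5* was at 3.11 and 3.58, the Notch target *HEY1* at 2.96 and 2.02, and the Notch ligand *JAG1* at 2.36 and 2.20. Of the venous genes 4 of 6 in yak and 6 of 7 in cattle-yak lay at -1 or less, beside 6.89% and 8.79% of all genes, with 4 in both and 0 at 1 or more. The atypical chemokine receptor gene *ACKR1* was at -3.78 in yak, and *SELP* (P-selectin) at -2.86. In cattle-yak, *SELP* had 131 UMIs in cells without *BMX* and 0 in cells with it. Of the capillary genes, 2 of 3 in yak and 2 of 4 in cattle-yak were at -1 or less, *CA4* at -3.00 and -4.73 and *RGCC* at -1.30 and -1.96. *CAV1* was at 0.11 and 0.65, and *CD36* at 0.84 in cattle-yak.

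The pathways of the other members were less uniform. Their counts stand beside the same 5.70% of all genes at 1 or more and 6.89% at -1 or less in yak, and 7.17% and 8.79% in cattle-yak. Of the 10 fibulin and elastic fibre genes with enough counts in yak, 7 were at 1 or more and 1 at -1 or less, with a median of 2.23. In cattle-yak it was 4 and 1 of 9, all 4 of them among the yak genes. *FBLN5* (fibulin-5) was at 3.94 and 3.46, *LTBP1* (latent TGF-β binding) at 3.21 and 3.22, *LTBP4* at 3.04 and 2.31, and *ELN* (elastin) at 2.75 in yak. Of the prostaglandin genes, 3 of 5 were at 1 or more in yak, *PTGIS* (prostacyclin synthase) at 2.96, the receptor *PTGER4* at 1.75 and the phospholipase *PLA2G4A* at 1.15. In cattle-yak *PLA2G4A* was at 1.93, and the prostaglandin transporter *SLCO2A1* was low in both, at -1.08 and -2.33. Of the hypoxia genes 1 of 11 (*EGLN3*, 1.27) was at 1 or more in yak and 3 at -1 or less, and in cattle-yak 0 and 2 of 9, so that the high count lay near the share over all genes. *ANGPT2*, a ligand of the endothelial receptor TEK, was at -2.63 and -2.26.

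Lists around the kinase, *ADAMTSL5* and *PLTP* were small. Of 6 TEC family kinases and partners with enough counts in each library, 0 in yak and 1 in cattle-yak, the kinase subunit gene *PIK3CB* at 1.43, reached 1, a count near the share over all genes, and *TEC* itself was at -0.02 and 0.78. *ADAMTSL2* had 3 UMIs in yak cells with *BMX* and 69 in those without. In cattle-yak it was at -2.67 and *ADAMTSL3* at -2.13, from 1 UMI each in cells with *BMX*. Of 5 lipid transfer genes, 2 in yak and 4 in cattle-yak were at -1 or less, beside 6.89% and 8.79% of all genes, and 0 at 1 or more. The cholesterol exporter *ABCA1* was at -2.52 and -2.26, from 1 and 3 UMIs in cells with *BMX*. *ABCG1* was at -2.87 and -1.53, from 1 UMI in such cells of each library.

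The 10 genes with the largest yak ratio, taken from genes counted at least 50 times in EC-like cells and seen in no less than 20% of those with *BMX*, were *SULF1*, *FBLN2*, *SOX9*, *FBLN5*, *SCD5*, *PLTP*, a pair without symbol, *SEMA3G* and *S100A4*, from 4.95 to 3.25. In cattle-yak all 10 were at 1 or more, from 3.53 for *SULF1* to 1.16 for *PLTP*, beside 7.17% of all genes. That share includes genes below these limits on counts and cells, so it is not a like-for-like background. *FBLN2* and *PLTP* are members, chosen with the levels of both libraries known. *FBLN5* and *SEMA3G* are on the arterial list, also chosen with earlier results of these data known. The count is therefore a description and no independent replication. *SULF1*, an extracellular sulfatase that trims heparan sulfate, was at 66.5 CPM with *BMX* and 1.18 CPM without in yak. *SOX9*, which was also on the list of Sertoli cell markers, was at 82.0 and 4.26 CPM. *S100A4*, a small calcium-binding protein gene, was at 1733 and 181 CPM in yak and at 1158 and 139 CPM in cattle-yak.

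Across 31 cell groups of at least 50 cells, from both libraries, the genes whose log2(CPM + 1) was most like that of *BMX* were *SEMA3G* (Pearson r = 0.93), ENSBGRG00000006898 (0.89), *MMRN2* (0.89), *NOS3* (0.87) and *MECOM* (0.84). *SEMA3G* encodes a secreted semaphorin, *MMRN2* an endothelial matrix protein, *NOS3* the endothelial nitric oxide synthase and *MECOM* a transcription factor. *ADAMTSL5* (0.74) and *EPAS1* (0.73) ranked 51 and 58 of the genes ranked, and *PTGS2* (0.36), *FBLN2* (0.30) and *PLTP* (0.10) far lower. These groups share 2 libraries, so r describes them only.

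The yak EC-like cells split into 11 sub-clusters, formed without the 6 genes. A pair of sub-clusters held nearly all *BMX*, and is described after its values were seen. The smaller one, 31 cells led by *DKK2*, *SULF1*, *SOX9*, *DZIP1*, *LTBP1* and *ID4*, held *BMX* at 390 CPM (314 to 479), in 27 of 31 cells, and all 5 partners at their highest of the class. *PTGS2* was at 206 CPM, *FBLN2* at 1131, *PLTP* at 501, *ADAMTSL5* at 750 and *EPAS1* at 844. The larger one, 157 cells led by *ALPL*, *ATP13A3* and *NRG2*, held *BMX* at 199 CPM (172 to 229), but *PTGS2* at 1.00 CPM from 1 UMI, *PLTP* at 9.05 and *FBLN2* at 209 CPM. The smaller was 205-fold higher for *PTGS2* (35.0 to 8248), 55.4-fold for *PLTP* (28.2 to 124) and 5.41-fold for *FBLN2* (4.49 to 6.52), but 1.96-fold for *BMX* (1.51 to 2.52). In the other EC-like cells, *BMX* was at 2.31 CPM, *PTGS2* at 3.59, *FBLN2* at 10.0, *PLTP* at 9.49, *ADAMTSL5* at 151 and *EPAS1* at 452. The arterial gene *GJA5* was at 163 CPM in the smaller, 45.2 in the larger and 3.08 in the other EC-like cells, and capillary *CA4* at 4.28, 40.2 and 490 CPM. Markers of other classes were also higher in the smaller one. The germ cell marker *UCHL1* was at 68.5 CPM from 16 UMIs, against 3.01 and 9.49 CPM. The stromal marker *COL1A2* was at 193 CPM, against 14.1 and 13.6 CPM. The part of mixed droplets or free RNA in this sub-cluster was not tested.

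Sub-clusters of cattle-yak were formed in the same way, and 2 of 11 held most *BMX*. One of 76 cells, led by *FBLN5*, *ALPL* and *BMP2*, held *BMX* at 176 CPM (144 to 213), *PTGS2* at 49.0, *FBLN2* at 179 and *PLTP* at 15.2. Another of 90 cells, led by *LTBP1*, *HEY1* and *S100A4*, held *BMX* at 127 CPM (89.7 to 174), *PTGS2* at 16.7, *FBLN2* at 160 and *PLTP* at 33.4. *DKK2*, a secreted modulator of Wnt signalling, was at 266 CPM in the 31-cell yak sub-cluster and at 1.69 and 13.3 CPM in this pair. *PLTP* ranged from 0 to 43.0 CPM over all cattle-yak EC-like sub-clusters. At least 3 markers of another class were enriched in 1 yak sub-cluster, of 30 cells, and in 3 in cattle-yak, of 7, 36 and 7 cells. Below that number, a yak sub-cluster of 144 cells was led by *ACTA2*, *TPM2*, *MGP* and *MYH11*, of which *ACTA2* and *MYH11* are myoid markers, and held *BMX* at 4.90 CPM.

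**Figure D3:**
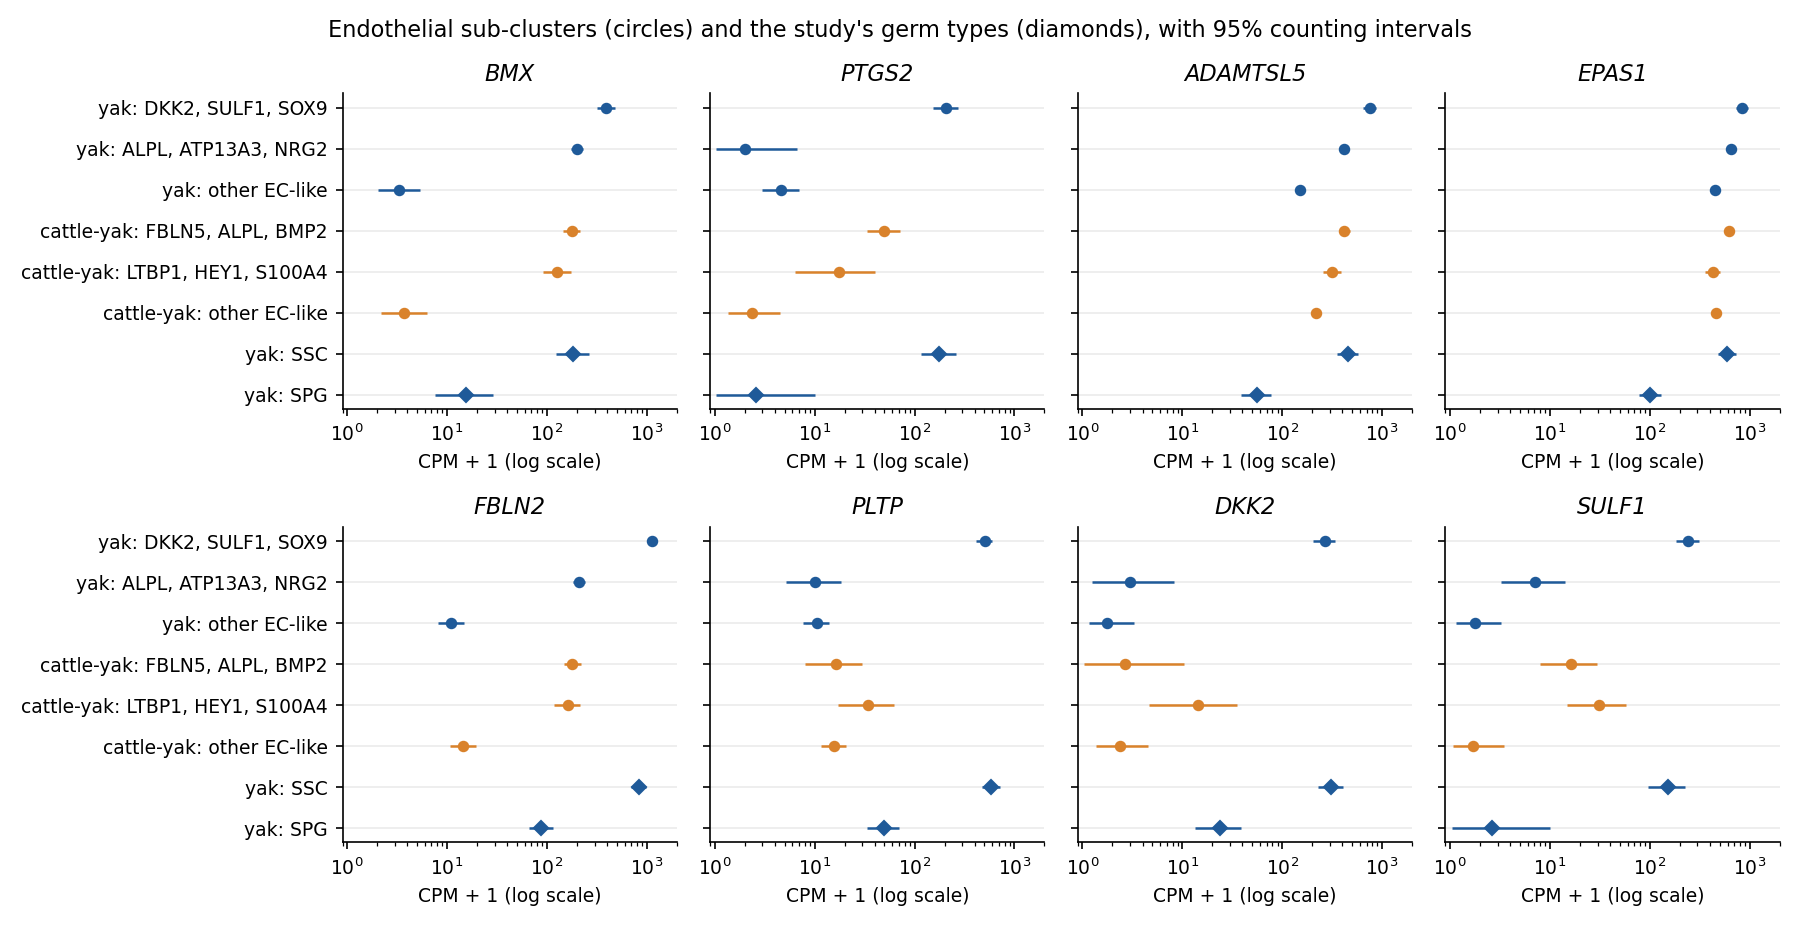
Level of the 6 genes (CPM, log axis) in sub-clusters of EC-like cells of yak and cattle-yak, formed without these genes. The yak sub-cluster led by *DKK2* has all 6 high (*BMX* 390 CPM, *FBLN2* 1131 CPM), and the one led by *ALPL* has *BMX* at 199 CPM but *PTGS2* at 1.00 CPM.

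The study named *BMX* and *PTGS2* as SSC genes on these cells, so the following is a description and no independent evidence. For *BMX* the study also reported immunohistochemistry, with the protein in a ring of SSC next to the seminiferous tubules. Protein was not measured here. All 6 genes were higher in SSC than in the other germ types, with 6 of 6 at a log2 ratio of 1 or more beside 11.3% of all genes, and 0 at -1 or less beside 39.0%. *BMX* stood at 28 against 12 UMIs, 25.2-fold (12.4 to 54.3), and *PTGS2* at 27 against 2, 146-fold (36.6 to 1264). *FBLN2* was at 830 CPM in SSC and 87.3 in SPG, *PLTP* at 588 and 48.5, *ADAMTSL5* at 451 and 54.9 and *EPAS1* at 594 and 100 CPM. *BMX* was found in 23 of 84 SSC (27.4%, thinned 14.3% of 77) and in 1.85% of SPG (thinned 0.844% of 237, with 249 shallower cells left out), at medians of 1605 and 980 UMIs. Of the spermatocytes and spermatids, 0 early, 2 late and 1 SPT UMIs of *BMX* were counted.

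Set against the yak EC-like sub-clusters, the SSC lay nearer the *DKK2* one for *PTGS2*, *PLTP* and *FBLN2*, and nearer the *ALPL* one for *BMX*, *ADAMTSL5* and *EPAS1*. For *PTGS2* the SSC level was 0.858-fold of it (0.515 to 1.40), for *PLTP* 1.17-fold (0.881 to 1.56), for *FBLN2* 0.734-fold (0.589 to 0.910) and for *BMX* 0.469-fold (0.296 to 0.724). Against the *ALPL* sub-cluster, SSC were at 0.919-fold for *BMX* (0.596 to 1.37), 1.09-fold for *ADAMTSL5* (0.831 to 1.41) and 0.909-fold for *EPAS1* (0.721 to 1.13). *DKK2* itself was at 307 CPM in SSC, 266 in the sub-cluster, 22.6 in SPG and 3.64 in T/NK-like cells. *SULF1* was at 150, 240, 1.62 and 0.251 CPM, and *PTGIS* at 118, 98.5, 6.46 and 0.376 CPM. In the sub-cluster with *ALPL*, *DKK2* was at 2.01, *SULF1* at 6.03 and *PTGIS* at 15.1 CPM.

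Endothelial markers were also present in these SSC. Of the 18 listed genes, 14 were measured, and their summed level was 2601 CPM in SSC with *BMX* and 2174 in SSC without, against 543 in SPG, 126 in T/NK-like and 4524 and 4226 in EC-like cells with and without *BMX*. *SOX18* and *PLVAP* were at 0 in SSC, and *PLVAP* was also at 0 in SPG and in yak EC-like cells with *BMX*. The 23 measured germ cell markers of 29 summed to 711 and 823 CPM in SSC with and without *BMX*, 2164 in SPG, 134 in T/NK-like and 68.7 and 87.6 CPM in EC-like cells. *SYCE1*, *RAD51AP2*, *SPO11*, *PIWIL1* and *TNP1* were at 0 in SSC, and *SPO11* was also at 0 in SPG. *PECAM1*, an endothelial adhesion molecule, was at 1182 CPM in SSC and 160 in SPG, and *UCHL1*, a germ cell marker, at 281 and 1028 CPM, with 12.8 in T/NK-like cells. UMIs of both marker kinds were found in 67.9% of SSC, 31.3% of SPG and 5.15% of T/NK-like cells. After thinning these shares were 35.1%, 26.6% and 1.54%. In EC-like cells the shares were 35.4% with *BMX* and 35.8% without, and 2.65% and 11.2% after thinning. The *PTPRB* and *FN1* cluster was at 10.6% after thinning. Of 31 SSC with *UCHL1*, 30 held an endothelial marker and 8 held *BMX*, near the 79 and 23 of all 84 SSC. Of 222 SPG with *UCHL1*, 79 held an endothelial marker and 2 held *BMX*. Median Scrublet scores, from a caller that called no yak cell, were 0.0460 in SSC, 0.0647 in SPG, 0.0360 and 0.0328 in EC-like cells with and without *BMX* and 0.0292 in T/NK-like cells. The part of mixed droplets or free RNA in these levels was not tested.

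**Figure D4:**
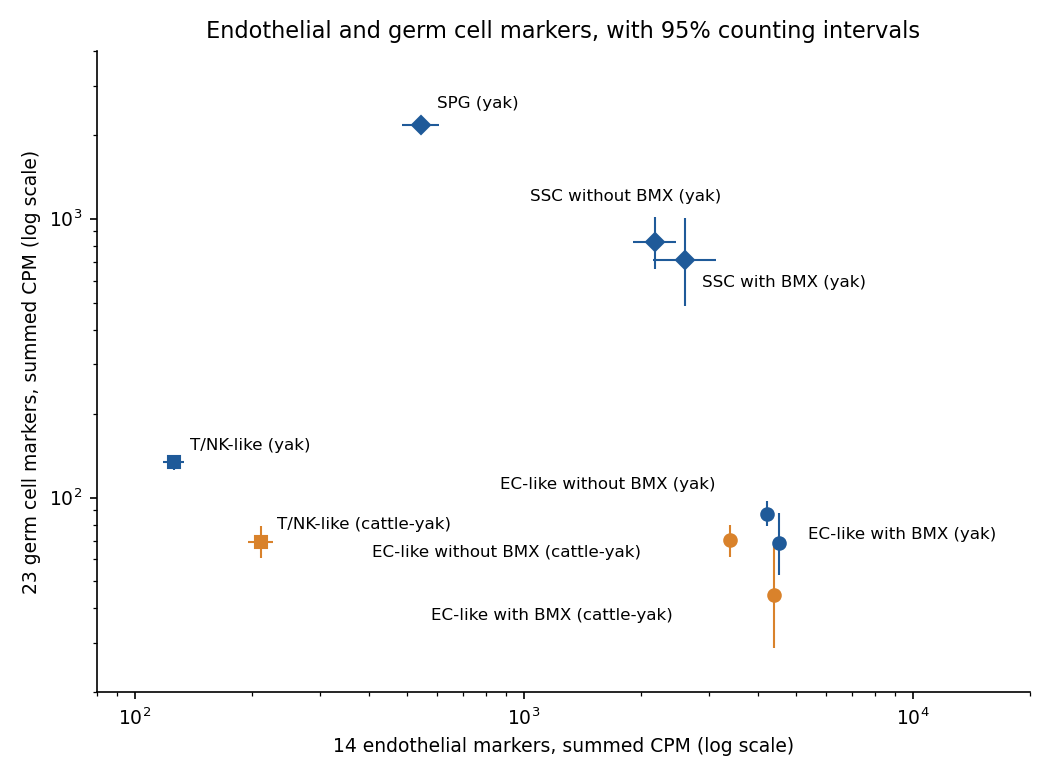
Summed level of 14 endothelial markers (horizontal, CPM, log axis) and 23 germ cell markers (vertical, CPM, log axis) for groups of yak and cattle-yak cells, with exact 95% Poisson bars. SSC with and without *BMX* lie between SPG (543, 2164) and EC-like cells (4524, 68.7 for yak with *BMX*).

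By clusters formed without the 6 genes, 64 of the 84 SSC lay in a germ-like cluster led by *UCHL1* and *TOMM34*, 16 in the *PTPRB* and *FN1* cluster, 3 in EC-like and 1 in lymphatic EC-like cells. The 64 held *BMX* at 160 CPM, *PTGS2* at 200, *FBLN2* at 840 and *PLTP* at 568 CPM, and the 16 held 270, 90.0, 810 and 855 CPM. In the 16, *BMX* rests on 6 UMIs and *PTGS2* on 2, below the floor of 3 counts. At least 1 of the 6 genes was found in 76 of 84 SSC (90.5%), 139 of 486 SPG, 758 of 887 EC-like and 398 of 3609 T/NK-like cells. At least 3 were found in 47, 4, 142 and 5 of these cells.

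Between SSC with and without *BMX*, 4 of the 5 partners differed less than in EC-like cells, and *EPAS1* by a similar factor. *FBLN2* differed 1.03-fold (0.683 to 1.52), *PTGS2* 1.01-fold (0.383 to 2.42) and *PLTP* 0.731-fold (0.426 to 1.21). *ADAMTSL5* was at 1.28-fold (0.747 to 2.15) and *EPAS1* at 1.57-fold (1.00 to 2.44). These 84 cells held few UMIs, and each interval except that of *EPAS1* spans 1.

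Co-detection was computed for each pair. Of 15 pairs of the 6 genes, 15 were found in more yak EC-like cells than independence gives, by 1.09 to 9.50 times with a median of 1.76. *PTGS2* and *PLTP* were found together in 15 cells, with 1.58 expected, *BMX* and *FBLN2* in 78 (15.0 expected), *BMX* and *PLTP* in 25 (7.13 expected), and *BMX* and *PTGS2* in 17 (3.19 expected). With every cell at 1000 UMIs, 15 pairs remained above, with a median of 2.51, but some rested on few cells. *BMX* and *PTGS2* then met in 1 cell (0.557 expected) and *BMX* and *PLTP* in 3 (0.756 expected). *PTGS2* and *PLTP* met in 7 (0.311 expected) and *BMX* and *FBLN2* in 12 (1.63 expected). The lowest ratio was that of *ADAMTSL5* and *EPAS1*, in 57 cells with 53.9 expected. In cattle-yak 15 pairs lay above before thinning and 12 after. *BMX* and *FBLN2* met in 35 of its cells, with 8.27 expected. In SSC 14 pairs lay above, from 0.794 for *BMX* and *PLTP* (10 cells, 12.6 expected) to 1.43 with a median of 1.21, and 12 after thinning, with a median of 1.07. Over the other kept cells of yak, which mix all other classes, 14 pairs lay above with a median of 2.54, and 15 with a median of 2.85 after thinning. In yak, whose other kept cells include the SSC and the *PTPRB* and *FN1* cluster, excess co-detection was therefore not particular to EC-like cells. Over the other kept cells of cattle-yak, 10 pairs lay above with a median of 1.63, and 4 with a median of 0.632 after thinning. The thinned median was 1.76 in cattle-yak EC-like cells, and *BMX* was then found in 3 of the 6110 other cells.

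**Figure D5:**
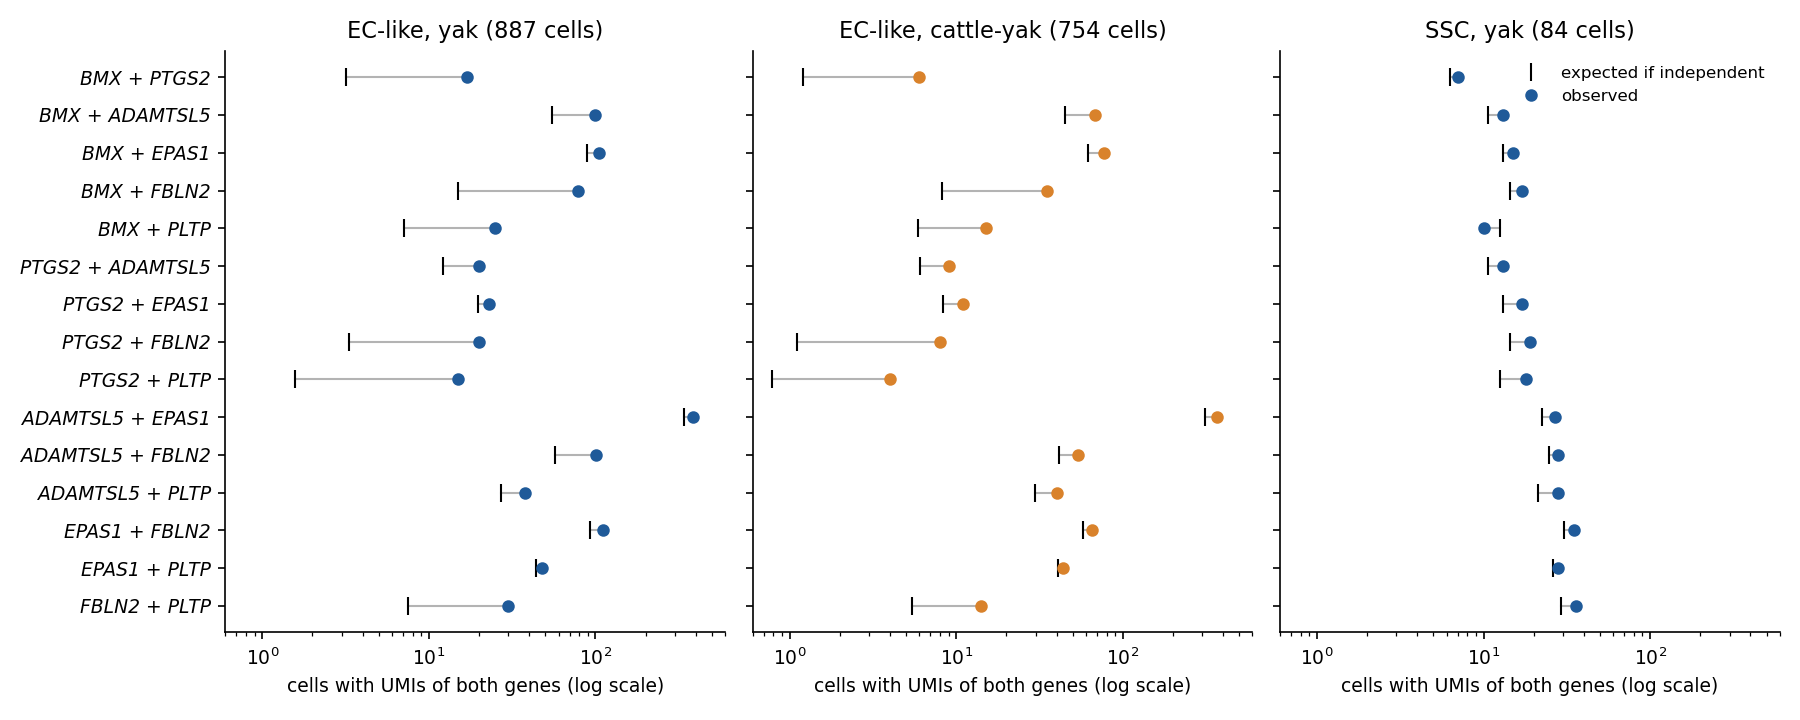
Number of cells with UMIs of both genes of each of 15 pairs (dots) beside the number expected if genes were independent (ticks), on a log axis, for yak and cattle-yak EC-like cells and yak SSC. In yak EC-like cells *BMX* and *FBLN2* share 78 cells against 15.0 expected, whereas in SSC *BMX* and *PLTP* share 10 against 12.6.

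Between the libraries, EC-like cells differed by less than 2-fold in each member. Yak over cattle-yak was 1.48-fold for *BMX* (1.21 to 1.82), 1.97-fold for *FBLN2* (1.66 to 2.33) and 1.96-fold for *PLTP* (1.46 to 2.67). *PTGS2* at 1.24-fold (0.814 to 1.90) and *EPAS1* at 1.05-fold (0.989 to 1.11) had intervals that span 1, and *ADAMTSL5* was at 0.898-fold (0.824 to 0.978). None of the 6 reached a log2 ratio of 1 or of -1, beside 4.61% and 3.57% of all genes, with *FBLN2* at 0.96 and *PLTP* at 0.93. Both passed 1 with no upper limit on genes and UMIs (1.41 and 1.27), with a mitochondrial limit of 20% (1.18 and 1.38) and at a Leiden resolution of 2 (1.22 and 1.42), and *FBLN2* alone with cells chosen by markers (1.32). Among cells with *BMX*, *PLTP* was 4.15-fold higher in yak (2.48 to 7.36), the only member at or above 1, beside 5.67% of all genes, with 0 at -1 or less beside 3.14%, and the rest lay from 1.01-fold for *PTGS2* to 2.00-fold for *FBLN2*. Among cells without *BMX*, *PLTP* was at 0.762-fold (0.491 to 1.18) and *FBLN2* at 0.965-fold (0.691 to 1.35). Of the 163 *PLTP* UMIs of yak EC-like cells, 117 lay in the 31-cell sub-cluster, at 501 CPM, while cattle-yak sub-clusters ranged from 0 to 43.0 CPM. The 157-cell yak and the 76-cell cattle-yak sub-clusters, both with *ALPL* among their leading genes, differed 0.595-fold in *PLTP* (0.209 to 1.69).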

How the data were processed

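The authors deposited, for each library, raw counts of UMIs per gene and barcode, without normalization. The file headers name Cell Ranger 5.0.0 and the submitters' processing notes name 2.1.1, and reads were mapped by the authors to a yak genome. The 6 genes and all lists were chosen with earlier results of these data known. Cells were kept within 2 SD of their library's mean genes and UMIs and below 30% mitochondrial UMIs, and all sub-cluster picks and the naming rule were made after clusters were seen. Clustering (scanpy 1.11.5, igraph 0.11.9, scikit-learn 1.9.0, Python 3.11.15, numpy 2.4.6, scipy 1.17.1, pandas 2.3.3, matplotlib 3.10.9) used 2000 variable genes without the 6, 30 components, 15 neighbours, Leiden resolution 1 and seed 0. A cluster took a name from 3 markers at a log2 ratio of at least 1 and in 10% of its cells. It stayed unnamed where another list also reached 3 such markers or had more genes among the leading ones. Lymphatic clusters could also hold the EC-like markers. Sub-clusters followed the same steps. Exact Poisson, Clopper-Pearson and conditional intervals are at 95%, and folds against 0 use 3 counts as floor. A ratio needed 20 counts and likeness 100. The text names the 6 genes, the list genes, the 10 genes of largest yak ratio and the 5 of closest likeness. Scrublet called 0 yak cells, so it has not worked there, and 251 cattle-yak cells, and no cell was removed. With 1 library per animal type no test was run. The log2 ratios and the intervals of ratios were tested on simulated counts drawn independently for each gene. UMIs that cluster in single cells were not simulated. Totals after thinning were checked on the yak EC-like cells. Clustering, naming, the *BMX* split and co-detection were not tested in this way. No coordinates or sequences of the 6 genes were used here.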

Additional observations from a re-analysis of the deposited data

How the results depend on the processing

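The 8 main results were levels and counts, which have no direction to reverse, and gave 62 values when recomputed under the alternatives. Of these 62, 51 kept their size and 11 moved, and a count could keep its size with different genes. Of 266 values recomputed in the same way for further results, 66 moved and 0 reversed, where only log2 ratios at or beyond 1 or -1 could reverse. *BMX* in EC-like cells was 73.9 CPM in yak and 55.4 CPM in cattle-yak without mitochondrial and rRNA features in the denominator. It was 32.8 and 21.2 CPM in cells chosen by UMIs of at least 3 endothelial markers and no *PTPRC*. As a mean over cells it was 48.3 CPM in yak. The number of members at a log2 ratio of 1 or more between the libraries, 0 as reported, was 2 with no upper limit on genes and UMIs, 2 with a mitochondrial limit of 20%, 2 at a Leiden resolution of 2 and 1 with the marker choice. Pairs above expectation were 9 in yak and 6 in cattle-yak at 500 UMIs, where counts per pair are few. The causes of these moves were not tested. Removal of cells in the top 10% of doublet scores moved 0 of 6 main values, which says nothing of doublets in yak, where the caller did not work. Alternatives that compared SSC with SPG alone, kept SSC of germ-like clusters only, used sub-clusters in place of the *BMX* split, or left out sub-clusters with other markers were chosen after seeing the data. No paired analysis was possible because each animal type has 1 library and no shared replicate number. Depth limits what can be said of *BMX* and *PTGS2* in single cells, and of germ types with fewer than 100 cells.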
